A study of Mus musculus with 4 samples.

Results

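The ephrin-B ligands and EphB receptors were examined across the cell classes and neuron subtypes of the developing mouse superior colliculus. The members were the 7 rows of the deposited matrix with the symbols Efnb1, Efnb2, Efnb3, Ephb1, Ephb2, Ephb3 and Ephb6, out of 31053 genes. They comprise 3 ligand genes and 4 receptor genes and were chosen by name, with earlier results of these data known. The superior colliculus, a midbrain centre for visual and other sensory input, came from C57BL/6J mice of 4 ages (E19 before birth, and P4, P8 and P21 counted in days after it), and its nuclei were profiled by single-nucleus RNA sequencing. Each stage was a single library of nuclei pooled from several animals, so stages are compared without replicates and no p-value is given between them. The labels name no genetic change and no treatment. In pooled tissue a lower sum over a class can reflect fewer UMIs per nucleus or another mix of its subtypes, which cannot be told apart from the class total alone. The libraries held 2249 to 2585 nuclei, 9724 in all, and 19277512 to 31325079 unique molecular identifiers (UMIs, each standing for a captured RNA molecule), with a median per nucleus between 6828 at E19 and 11745 at P21. The deposited annotation placed the nuclei in 9 classes and 35 subtypes, among them 13 excitatory subtypes (EN1 to EN13) and 12 inhibitory subtypes (IN1 to IN12).

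Ephrin-B ligands are transmembrane proteins with a short cytoplasmic tail, and EphB receptors are receptor tyrosine kinases, so both partners must be on touching cells and signals can pass in both directions. In the retina and its targets the family is known for the topographic ordering of axons, and at synapses EphB receptors are known for their link to NMDA receptors and spine formation. EphB6 is the exception among the receptors in that its kinase domain is inactive.

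In the GENCODE M21 annotation of GRCm38 (mm10), Efnb1 (ENSMUSG00000031217) lies at chrX:99136130-99148991 on the plus strand, Efnb2 (ENSMUSG00000001300) at chr8:8617434-8661242 on the minus strand and Efnb3 (ENSMUSG00000003934) at chr11:69554092-69560205 on the minus strand. The receptor genes lie at chr9:101922128-102354693 (Ephb1, ENSMUSG00000032537, minus strand), chr4:136647539-136835988 (Ephb2, ENSMUSG00000028664, minus strand), chr16:21204755-21223305 (Ephb3, ENSMUSG00000005958, plus strand) and chr6:41605482-41620509 (Ephb6, ENSMUSG00000029869, plus strand). Ephb1 spans 433 kb and overlaps 3 other annotated genes on its own strand and 6 on the opposite strand, and Efnb2 overlaps 3 on its own strand, while the other 5 members overlap none. The sources used here do not say if counting was by strand, and some UMIs of Ephb1 and Efnb2 could belong to an overlapping gene. Totals were not divided by gene length, so levels are compared below between cells and stages and not between genes.

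RefSeq promoters (build GRCm38.p6) were found for 6 of the 7 members, all except Efnb3. Those of Ephb1 and Ephb2 are printed because both genes were lower at P21 than at E19 in every neuron subtype measured at both ages. The sequences are the 250 bases before the transcript start, at chr9:102354694-102354943 for Ephb1 and chr4:136836013-136836262 for Ephb2, both read 5′ to 3′ on the minus strand. Capitals mark the CCAAT box on either strand, so that ATTGG is its reverse complement.
Ephb1: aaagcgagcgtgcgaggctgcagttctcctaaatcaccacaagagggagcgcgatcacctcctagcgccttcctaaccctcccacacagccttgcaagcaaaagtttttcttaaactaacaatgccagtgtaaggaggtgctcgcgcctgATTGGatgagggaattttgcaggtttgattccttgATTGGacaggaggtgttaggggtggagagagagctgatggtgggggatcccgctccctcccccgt
Ephb2: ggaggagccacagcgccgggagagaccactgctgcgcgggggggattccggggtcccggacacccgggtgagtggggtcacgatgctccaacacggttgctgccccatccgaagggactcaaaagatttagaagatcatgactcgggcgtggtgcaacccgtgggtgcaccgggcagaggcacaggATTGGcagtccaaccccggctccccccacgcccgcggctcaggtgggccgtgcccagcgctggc
The Ephb1 window held 2 matches to CCAAT and the Ephb2 window 1, and a match occurred in 34.5% of the 27025 promoters of this length. Neither window held the GC box GGGCGG, found in 32.9% of all promoters, the TATA box TATAAA (12.97%) or the SOX core ACAAAG (16.5%), all searched on both strands. The E-box CANNTG, present in 66.0% of promoters, had 1 match in Ephb2 and 0 in Ephb1. GC content was 54.0% for Ephb1 and 68.4% for Ephb2 against a median of 52.0%.

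Most class labels matched their marker genes. Summed levels of 3 general neuronal genes (Rbfox3, Snap25, Syt1) were 1728 to 3542 CPM (UMIs of the gene scaled to a common library total of 1e6) in the neuron classes and 307 to 364 CPM in astrocytes. Microglia and endothelial cells carried their own lists at 1957 to 2647 CPM and 5421 to 7318 CPM. In the class labelled epithelial, by contrast, the list of epithelial and ependymal genes (Foxj1, Ttr, Epcam, Dnah12) reached 0 to 118 CPM, so these genes did not bear that label out. The list of vascular leptomeningeal cells (Col1a1, Col1a2, Dcn, Slc6a13) reached 648 to 1132 CPM there, but not through all its genes. Slc6a13 was at 0 to 48.5 CPM in the class, against 696 to 1587 CPM in vascular leptomeningeal cells. The choroid plexus gene Ttr, which codes for a secreted carrier protein, was at 2371 CPM in the fibrous astrocytes of the P4 library and at 0 to 9.08 CPM in those of the other 3. Other groups of the P4 library held Ttr too. It was at 170 CPM in protoplasmic astrocytes, 118 CPM in vascular leptomeningeal cells and 103 CPM in the class labelled epithelial. At the other ages these groups held at most 2.86, 2.18 and 3.64 CPM. A background of the P4 library was not estimated. Across libraries, 9 cell barcodes occurred more than once.

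Among the ligands, Efnb3 showed the largest difference between ages in neurons. In excitatory neurons its level began at 79.9 CPM in the E19 library (95% exact Poisson interval 74.8 to 85.2, counting error only), passed through 58.2 CPM (P4) and 34.9 CPM (P8), and reached 6.71 CPM in the P21 library (5.45 to 8.18). Inhibitory neurons held 81.5, 68.9, 43.7 and 12.4 CPM at the same ages. The level was lower at each later stage in both classes, and no interval at P21 overlapped one at P8. The E19 level was 11.9-fold that of P21 in excitatory neurons (9.66 to 14.8) and 6.58-fold in inhibitory neurons (5.44 to 8.001). On the log2 scale with 5 CPM added to each level, which understates changes of low genes, the differences from E19 to P21 were −2.86 and −2.32. Most of this lay after P8, where Efnb3 was lower by 1.77 in excitatory and by 1.49 in inhibitory neurons on the log2 scale, past 2-fold in both classes. Only 3.04% of genes in excitatory neurons and 3.28% in inhibitory neurons were past 2-fold lower over that step.

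Efnb2, a ligand also known from arterial endothelium, was lower at P21 than at E19 in both neuron classes. Excitatory neurons held 37.5, 26.9, 35.6 and 25.1 CPM in order of age, and inhibitory neurons 42.8, 33.7, 27.4 and 25.9 CPM. Both differences were beyond counting error, at −0.50 and −0.63 on the log2 scale, and short of 2-fold. With inhibitory subtypes weighted alike the second value was −0.27. Levels were higher in vascular cells than in neurons. Vascular leptomeningeal cells held 150.04 CPM (103 to 211), 201 CPM, 204 CPM and 182 CPM (155 to 212) from E19 to P21, whose intervals all overlap. The endothelial class, with only 12 to 22 nuclei a library, held 234, 91.7, 124 and 190 CPM (104 to 318 at P21).

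Efnb1, an X-linked ligand gene, was low in neurons and high in vascular leptomeningeal cells. It stood at 7.63, 4.90, 1.82 and 1.57 CPM in excitatory neurons and at 8.72, 5.79, 4.42 and 2.30 CPM in inhibitory neurons, from E19 to P21, on 23 to 88 UMIs a sum. In vascular leptomeningeal cells it stood at 100.03, 75.1, 81.03 and 51.2 CPM, every value above every neuronal one. Xist, the RNA made by the inactive X chromosome, had a UMI in 0.967%, 46.0%, 40.7% and 68.1% of the nuclei of the 4 libraries, in order of age. The sex of the pooled animals, as read from Xist, thus differed along with age in every comparison of E19 with a later stage. The Xist share also differed between P4 and P21 (46.0% and 68.1%), the ages compared below in the oligodendrocyte lineage and vascular leptomeningeal cells. This holds for all members and all classes, and sex and age cannot be told apart here. The part of this difference in the levels of Efnb1 and of the other members was not tested.

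Among the receptors, Ephb1 was abundant in every neuron class and stage. From E19 to P21, excitatory neurons held 1119, 707, 1049.8 and 722 CPM, with an interval of 1099.9 to 1139 at the first age and 708 to 736 at the last. Inhibitory neurons held 869, 687, 645 and 371 CPM (360 to 382 at P21). The excitatory class sum thus went down, up and down, while the inhibitory one was lower at each later stage. The excitatory rise from P4 to P8, 0.57 on the log2 scale, was not general within subtypes. Of 11 excitatory subtypes with at least 20 nuclei at both ages, 5 were higher and 6 lower at P8. Their median log2 difference was −0.016, and 2 were higher and 1 lower beyond counting error. The part of the subtype mix in the class sum was not tested. From E19 to P21 the log2 difference was −0.63 in excitatory and −1.22 in inhibitory neurons. The excitatory value was −1.01 when the 11 subtypes with at least 20 nuclei at both ages were weighted alike.

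Ephb2, the receptor best known from excitatory synapses, was lower at each later stage in both neuron classes. From E19 to P21 it stood at 312, 258, 238 and 144 CPM in excitatory neurons (302 to 322 at the first age, 138 to 150.3 at the last), and at 305, 255, 218 and 133 CPM in inhibitory neurons. The E19 level was 2.17-fold that of P21 in the former (2.05 to 2.29) and 2.29-fold in the latter (2.14 to 2.45). At each age the 2 classes lay close together.

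The kinase-inactive Ephb6 was highest at P8 and lowest at P21 in excitatory neurons. From E19 to P21 it stood at 26.01, 32.02, 35.9 and 18.8 CPM in excitatory neurons and at 24.5, 23.2, 19.1 and 14.5 CPM in inhibitory neurons. Ephb3 stood at 4.24 to 6.50 CPM in excitatory neurons and at 5.79 to 9.06 CPM in inhibitory neurons, with no steady direction between stages.

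**Figure D1:**
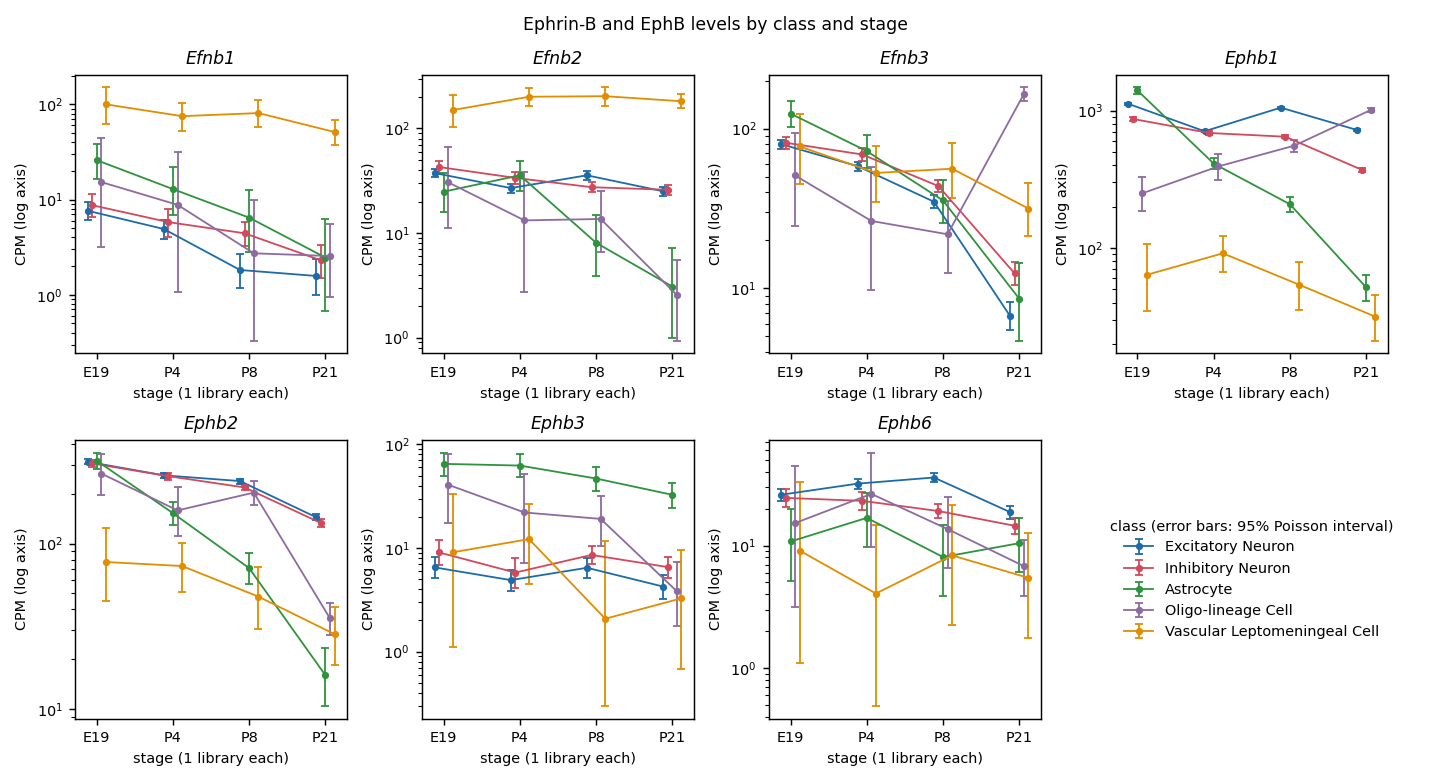
Levels of the 7 members (CPM, log axis) at the 4 stages in 5 classes, 1 library per stage, with 95% Poisson intervals as error bars. Efnb3 goes from 79.9 to 6.71 CPM in excitatory neurons while it reaches 164.5 CPM in the oligodendrocyte lineage at P21, and Ephb1 goes from 1400.4 to 51.7 CPM in astrocytes.

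Counts of members past 2-fold were read against all genes. A mean of at least 10 CPM over the stages was required, which 5 of the 7 members met in each neuron class, Efnb1 and Ephb3 lying below it. From E19 to P21, 2 of the 5 (Efnb3 and Ephb2) were past 2-fold lower in excitatory neurons, where 9.67% of all 9175 genes were, and 3 of the 5 (with Ephb1) were so in inhibitory neurons, where 10.4% of 9298 genes were. No member was past 2-fold higher, against 4.46% and 4.94% of genes. The median log2 difference over all 7 members was −0.63 in excitatory and −0.91 in inhibitory neurons, beside −0.074 and −0.060 over all genes tested. Median-of-ratios scaling moved these last 2 values to 0.028 and 0.040, and under it Ephb2 in excitatory neurons stood at −0.98, short of 2-fold, which left 1 member past it.

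The differences of Efnb3, Ephb1 and Ephb2 were also found within subtypes. Of the neuron subtypes, 11 excitatory and 12 inhibitory ones held at least 20 nuclei at both E19 and P21, EN7 and EN11 being left out. Efnb3 was lower at P21 beyond counting error in 11 of the 11 and 12 of the 12, and past 2-fold lower in all of them. Its levels ranged over excitatory subtypes from 50.3 CPM (EN9) to 100.3 CPM (EN2) at E19 and from 1.63 CPM (EN12) to 15.1 CPM (EN5) at P21, so that the ranges of the 2 ages did not overlap. The inhibitory subtypes ranged from 57.2 to 111 CPM at E19 and from 6.67 to 19.9 CPM at P21, likewise without overlap. Ephb1 and Ephb2 were lower beyond counting error in the same 11 and 12 subtypes. Ephb1 was past 2-fold lower in 7 excitatory and 8 inhibitory ones, and Ephb2 in 7 and 11. The log2 difference of Ephb1 ran from −1.38 (EN10) to −0.62 (EN8) and from −1.83 (IN9) to −0.35 (IN5), and that of Ephb2 from −1.43 (EN5) to −0.63 (EN13) and from −1.65 (IN9) to −0.60 (IN10). All subtypes share the same 2 libraries, so they are not independent replicates of the age difference.

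The remaining members varied in direction. Efnb2 was lower at P21 in 9 of 11 excitatory and 9 of 11 inhibitory subtypes with any UMI, but beyond counting error in 5 and 2 of them, and past 2-fold lower in 5 and 2. In EN6 it stood at 109 CPM at E19 and 95.7 CPM at P21, and in EN13 at 12.7 and 24.3 CPM. Ephb6 was lower beyond counting error in 3 excitatory subtypes and 1 inhibitory subtype, Efnb1 in 3 and 3, and Ephb3 in 2 and 1. In none of the 23 subtypes was a member higher at P21 beyond counting error. The share of all genes lower or higher beyond counting error within these subtypes was not counted. The subtype counts here and above thus do not set the members apart from other genes.

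**Figure D2:**
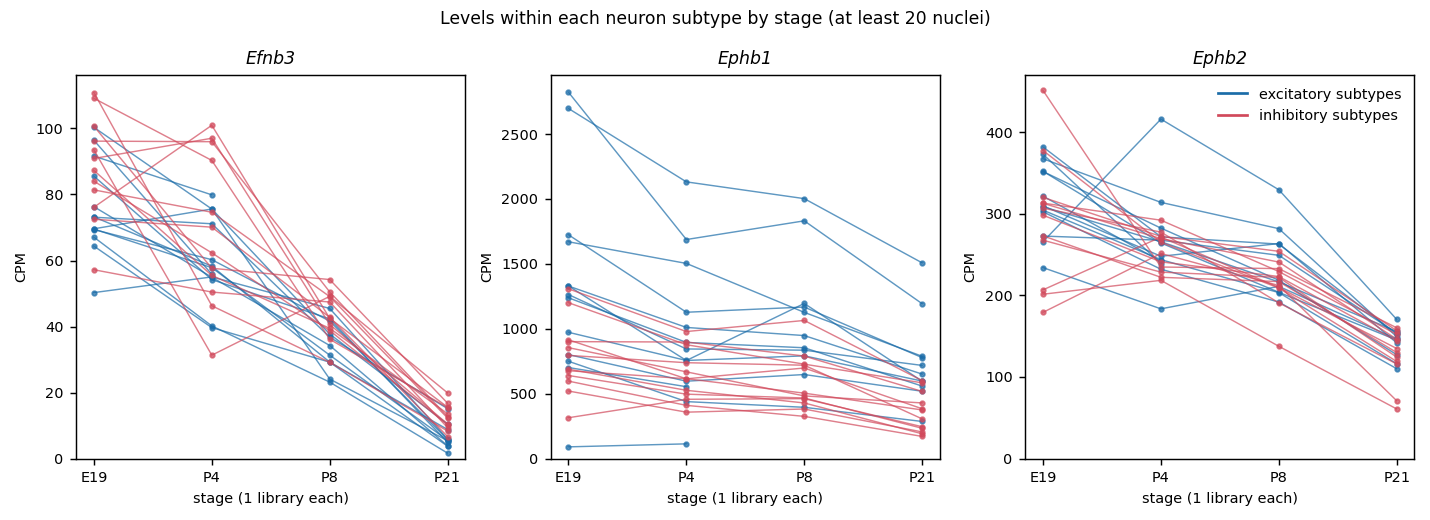
Levels of Efnb3, Ephb1 and Ephb2 (CPM) by stage within each neuron subtype with at least 20 nuclei, excitatory in blue and inhibitory in red, each line a subtype. Every line that runs from E19 to P21 ends lower than it begins, and for Efnb3 the P21 values (1.63 to 19.9 CPM) lie below all E19 values (50.3 to 111 CPM).

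Ephb1 and Efnb2 differed widely between neuron subtypes. These levels describe subtypes that the submitters named from the same nuclei, with the 4 libraries summed. Ephb1 was highest in EN9, at 1907 CPM (1853 to 1963), and next in EN12, at 1604 CPM, and lowest in EN7, at 111 CPM (99.6 to 123), a 17.2-fold range over 25 subtypes (15.4 to 19.2) around a median of 659 CPM. In the E19 library alone EN12 was highest, at 2822 CPM against 2697 CPM in EN9, and EN9 led the excitatory subtypes at the other 3 ages. EN9 and EN7 lay far apart at both ages at which EN7 held enough nuclei, 2697 against 89.97 CPM at E19 and 2131 against 113 CPM at P4. EN7 held 33 nuclei at E19 and 191 at P4. EN10, the lowest excitatory subtype at P8 and P21, held 749, 439, 395 and 286 CPM from E19 to P21, and EN9 stood above it 3.60-fold, 4.86-fold, 5.07-fold and 5.28-fold at the 4 ages. Among inhibitory subtypes IN2 was highest at each of the 4 ages, from 1307 CPM at E19 to 601 CPM at P21, against a median of 741 and 340 CPM. The order of subtypes by Ephb1 was much the same at any 2 ages, with Spearman coefficients of 0.79 to 0.95 over 11 to 13 excitatory and 0.83 to 0.94 over 12 inhibitory subtypes, each age being a single library that all its subtypes share.

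Efnb2 was highest in EN6 at each age, with 109, 99.4, 91.1 and 95.7 CPM from E19 to P21. EN8 held 20.8, 8.30, 7.69 and 7.46 CPM at those ages, so that EN6 stood 5.24-fold above it at E19 (2.43 to 11.96) and 12.8-fold above it at P21 (6.69 to 27.6). With libraries summed, EN6 held 95.2 CPM (84.0 to 107), clear of the next subtype EN5 at 55.1 CPM. Of the inhibitory subtypes IN10 was highest, at 52.8 CPM (41.7 to 66.01), and IN11 lowest, at 2.99 CPM (0.815 to 7.66) on 4 UMIs from 116 nuclei. IN11 had no Efnb2 UMI at E19 or P21. EN6 was thus high in Efnb2 and, at 1083 CPM, also above the median in Ephb1, whereas EN8 stood at 613 CPM of Ephb1. The pairs of subtypes compared here were chosen after their values were seen.

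Efnb1 was low in all neuron subtypes, from 7.67 CPM in EN7 (4.92 to 11.4) to 0.41 CPM in EN9 (0.01 to 2.29), and no neighbours in its order were clear of each other. Ephb2 spanned a 2.20-fold range, from 276 CPM in EN13 to 125.5 CPM in IN9 (108 to 146), and IN9 was the only subtype whose interval was clear of its neighbour's. With ages weighted alike EN7 ranked highest and EN10 lowest among excitatory subtypes for Ephb2, and IN9 stayed the lowest inhibitory one. However, EN7 held at least 20 nuclei only at E19 and P4, where excitatory Ephb2 was highest, so its rank lacks the later ages. At P4, P8 and P21 the highest excitatory subtype was EN13, at 416, 329 and 170 CPM, and at E19 it was EN12, at 382 CPM. Efnb3 ranged from 67.8 CPM in EN2 to 20.1 CPM in EN12 without any gap between neighbours. With ages weighted alike EN11 took the highest place, but EN11 too held at least 20 nuclei only at E19 and P4. The order of subtypes by Efnb3 was not steady between ages. Spearman coefficients ran from −0.09 to 0.78 over excitatory and from −0.17 to 0.39 over inhibitory subtypes. Ephb6 was highest in EN12, at 56.2 CPM (48.0 to 65.5) against a median of 22.8 CPM over subtypes, and EN12 led the excitatory subtypes at each of the 4 ages, with 82.5, 66.95, 76.5 and 31.02 CPM. Ephb3 was highest in IN3, at 15.8 CPM (12.3 to 19.9) against a median of 5.60 CPM. IN3 led the inhibitory subtypes at P4, P8 and P21, but at E19 IN10 did, at 14.8 CPM. The Ephb3 order was not steady between ages, with Spearman coefficients of −0.25 to 0.31 over inhibitory subtypes.

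**Figure D3:**
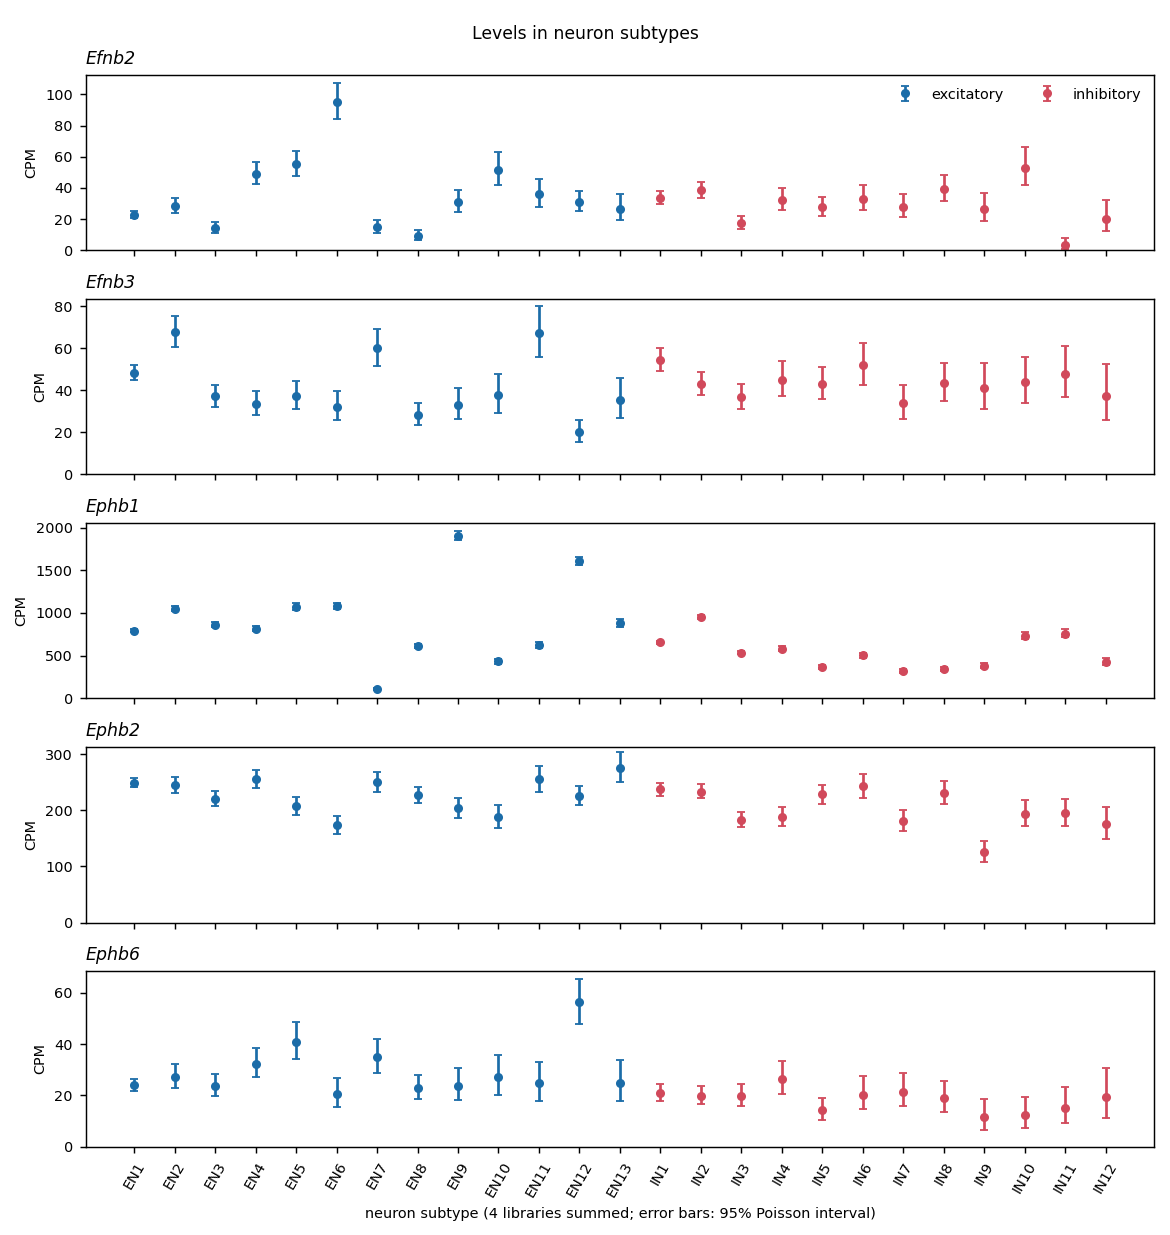
Levels of 5 members (CPM, 4 libraries summed) in the 13 excitatory and 12 inhibitory subtypes, with 95% Poisson intervals as error bars. EN9 and EN12 lead for Ephb1 (1907 and 1604 CPM), EN6 for Efnb2 (95.2 CPM) and EN12 for Ephb6 (56.2 CPM), while Ephb2 stays between 125.5 and 276 CPM.

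Excitatory and inhibitory neurons were compared over the 4 libraries, each of which holds both classes, with edgeR's quasi-likelihood test on summed UMIs and the library as a block. The block takes out age differences that both classes share. The spread that the test uses still includes changes of the class difference with age, and the classes were named from these same nuclei. Of 15686 genes, 16.6% were called at an adjusted p of 0.05, and of the 7 members 1 was called. Ephb6 was higher in excitatory neurons in 4 of 4 libraries, by 0.54 ± 0.13 (SE) on the log2 scale, with an edgeR adjusted p of 0.0233. That call was lost when the P4, P8 or P21 library was left out (edgeR adjusted p of 0.0879, 0.0671 and 0.0582), the estimate then being 0.36 to 0.57. Ephb1 was higher in excitatory neurons by 0.57 ± 0.16 in 4 of 4 libraries, with an edgeR adjusted p of 0.0745, which was 0.00762 without the P4 library and 0.0101 without EN7. The log2 ratio of Ephb1 within libraries was 0.36, 0.04, 0.70 and 0.95 in order of age.

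For the other 5 members the class difference did not pass the threshold. Ephb3 (−0.39), Efnb1 (−0.46) and Efnb3 (−0.24) were lower in excitatory neurons in 4 of 4 libraries, with edgeR adjusted p-values of 0.0713, 0.165 and 0.181. Ephb2 stood at 0.13 (edgeR adjusted p of 0.115) and Efnb2 at 0.02 (edgeR adjusted p of 0.939), the latter being higher in excitatory neurons only in the P8 library.

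Astrocytes and all neurons were compared in the same way, again with classes named from these nuclei. Of 16155 genes, 42.2% were called, and 4 of the 7 members were. Ephb3 was the member most enriched in astrocytes, with 64.8, 62.4, 46.8 and 32.6 CPM from E19 to P21 against 7.37, 5.17, 7.42 and 5.25 CPM in neurons. Its log2 difference was 2.76 ± 0.20 (edgeR adjusted p of 1.30e-05), higher in 4 of 4 libraries. Ephb6 was lower in astrocytes in 4 of 4 libraries, with 10.8, 16.8, 8.06 and 10.5 CPM against 25.5, 29.4, 28.3 and 16.9 CPM in neurons (log2 difference −1.35 ± 0.23, edgeR adjusted p of 0.00205). Both calls held in each of the 10 alternative fits.

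The 2 other calls depended on single libraries. Efnb1 was higher in astrocytes in 4 of 4 libraries (0.96 ± 0.30, edgeR adjusted p of 0.0314), and the adjusted p was 0.188, 0.107 and 0.0845 without the E19, P4 and P8 library. The Efnb1 ratio went from 1.25 at E19 to 0.11 at P21, where astrocytes held 2.46 CPM on 4 UMIs against 1.89 CPM in neurons. Ephb2 was lower in astrocytes (−1.52 ± 0.46, edgeR adjusted p of 0.0428), in 3 of 4 libraries, and the adjusted p was 0.0813, 0.119 and 0.0689 without the P4, P8 and P21 library. Its ratio went from 0.03 at E19 to −2.78 at P21. Ephb1 (−1.67, edgeR adjusted p of 0.0798) and Efnb2 (−1.32, edgeR adjusted p of 0.0626) were not called with all libraries, but Ephb1 was without E19 (edgeR adjusted p of 0.0145) and Efnb2 without P4 (edgeR adjusted p of 0.0102). Efnb3 did not pass either (−0.06, edgeR adjusted p of 0.874).

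**Figure D4:**
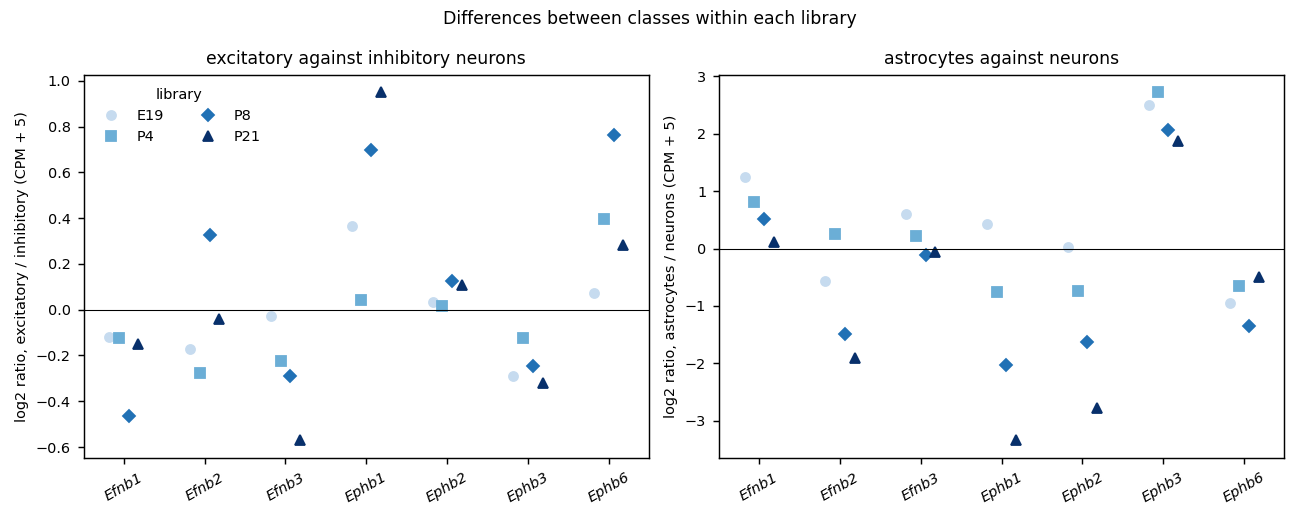
Log2 ratio of each member between classes within each of the 4 libraries (CPM with 5 added), for excitatory over inhibitory neurons on the left and astrocytes over neurons on the right, each point a library. Ephb6 is above 0 on the left in 4 of 4 libraries, and on the right Ephb1 and Ephb2 spread from above 0 at E19 to −3.34 and −2.78 at P21.

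Within astrocytes, 5 of the 7 members were past 2-fold lower at P21 than at E19, where 16.6% of 10089 genes were, and 0 were higher, where 7.24% of genes were. The median over all genes was −0.23 under CPM and 0.03 under median-of-ratios scaling. Ephb1 stood at 1400.4, 411, 208 and 51.7 CPM from E19 to P21, with intervals of 1325 to 1479 at the first age and 41.2 to 64.0 at the last. That is a 27.1-fold difference between the first and last age (21.7 to 34.2), with no overlap between any 2 stages. Ephb2 stood at 316, 152.5, 70.95 and 15.99 CPM, a 19.8-fold difference (13.2 to 30.8), and Efnb3 at 124, 72.3, 35.5 and 8.61 CPM, a 14.4-fold difference (8.25 to 27.2). Efnb1 (25.9 to 2.46 CPM) and Efnb2 (24.8 to 3.08 CPM) were the remaining 2, on 4 and 5 UMIs at P21. Ephb3 was 1.99-fold lower at P21 (1.35 to 2.93). Ephb6 stood at −0.03 on the log2 scale, a sign that changed to 0.17 under median-of-ratios scaling. The astrocyte marker list (Aqp4, Slc1a3, Slc1a2, Gja1) was at 1893 CPM at E19 and 5798 CPM at P21 in the same nuclei, and its part in these differences was not tested.

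The 2 astrocyte subtypes differed in Efnb3. Fibrous astrocytes held 399, 222, 136 and 22.05 CPM in order of age (76 UMIs at the first age, 5 at the last), and protoplasmic astrocytes 53.01, 29.3, 13.7 and 6.43 CPM. The ratio was 7.52 (5.05 to 11.4), 7.55 (4.53 to 12.97), 9.92 (5.10 to 20.3) and 3.43 (0.903 to 11.4), so that at P21 the counts could not show a difference. Ephb1 went the other way at the younger ages, with 772 against 1563 CPM at E19 and 235 against 462 CPM at P4. Efnb2 was at 129 CPM in fibrous and 8.93 CPM in protoplasmic astrocytes at P4, and the intervals of the ratio at the other 3 ages included 1. The fibrous subtype carried the epithelial and ependymal list at 41.99, 3036, 86.3 and 137 CPM at the 4 ages, 2371 CPM of the P4 value being Ttr and 612 CPM the ciliary gene Dnah12, and their part in the values of Efnb2 and Efnb3 was not tested.

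In the oligodendrocyte lineage, Efnb3 and Ephb1 were higher at P21, opposite to astrocytes. The class was described from P4, since only 47 nuclei were present at E19. From P4 to P21, Efnb3 stood at 26.4 (6 UMIs), 21.8 and 164.5 CPM (149 to 182), and Ephb1 at 392, 556 and 1009 CPM (969 to 1050). From P4 to P21, 2 of the 5 members above the minimum were past 2-fold higher, where 11.3% of 9580 genes were. The other 3, Ephb2 (158 to 35.3 CPM), Ephb3 (22.01 to 3.83 CPM) and Ephb6 (26.4 to 6.80 CPM), were past 2-fold lower, where 24.8% of genes were. Efnb1 and Efnb2 were under the minimum, at 2.55 CPM each at P21.

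The make-up of the lineage differed greatly between these ages. Oligodendrocyte precursor cells (OPC) made up 77.8% of its nuclei at P4 and 20.9% at P21, where 61.1% were myelinating oligodendrocytes. At P21, Efnb3 was at 10.02 CPM in OPC (3 UMIs, 2.07 to 29.3), 84.4 CPM in committed oligodendrocytes (60.6 to 115) and 219 CPM in myelinating ones (196 to 243), which puts the last 21.8-fold above OPC (7.41 to 106). Ephb1 stood at 250.4, 1577 and 977 CPM in these 3 subtypes, so the committed nuclei were highest, 6.30-fold above OPC (4.96 to 8.09), as they were at P8 at 952 against 336 CPM. Ephb2 was highest in OPC, with 157, 57.6 and 5.10 CPM in the same 3 subtypes. Within OPC, the only subtype with at least 20 nuclei at both ages, the log2 difference of Efnb3 from P4 to P21 was −0.94, with 4 and 3 UMIs behind it, that of Ephb1 was 0.58 and that of Ephb2 −0.03, and no member was past 2-fold.

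**Figure D5:**
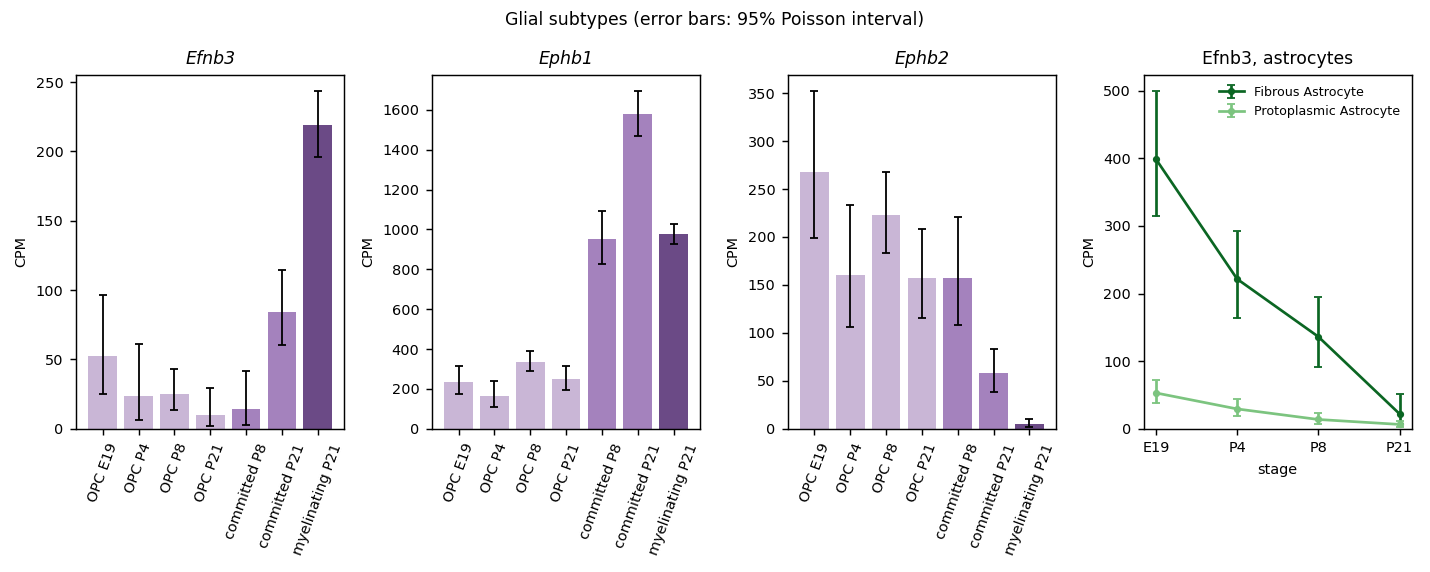
Levels (CPM) of Efnb3, Ephb1 and Ephb2 in oligodendrocyte-lineage subtypes at the ages with at least 20 nuclei, and of Efnb3 in the 2 astrocyte subtypes by age, with 95% Poisson intervals as error bars. Myelinating nuclei at P21 hold 219 CPM of Efnb3 and 5.10 CPM of Ephb2, and fibrous astrocytes lie above protoplasmic ones at E19, P4 and P8.

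In vascular leptomeningeal cells, 2 of 5 members above the minimum, Ephb1 (91.4 to 31.6 CPM) and Ephb2 (73.1 to 28.3 CPM), were past 2-fold lower at P21 than at P4, where 10.9% of 9896 genes were. Efnb2 (201 to 182 CPM, log2 difference −0.14, but 0.09 under median-of-ratios scaling), Efnb1 and Efnb3 had intervals that included no difference. This class also carried the astrocyte list at 1437 to 3151 CPM, which was not tested as a part of these values. Nearly all of that sum was Slc1a3 (1053 to 2348 CPM) and Gja1 (249 to 982 CPM). The other genes of the list were low, Aqp4 at 0 to 41.6 CPM and Slc1a2 at 13.6 to 98.1 CPM.

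The share of nuclei with a UMI was compared after every nucleus was thinned to 2300 UMIs, which left out none. For Ephb1 it was 80.3% in excitatory neurons at E19 (78.0 to 82.4, exact binomial interval) and 72.9% at P21 (69.4 to 76.2), 71.6% and 48.4% in inhibitory neurons, and 76.02% and 10.5% in astrocytes. Without thinning the shares were 93.3% and 97.1% in excitatory neurons, 88.8% and 85.8% in inhibitory neurons and 82.7% and 20.9% in astrocytes. In microglia, taken as a comparison class, the thinned share was 21.1% (13.2 to 31.0) over all ages, with a median depth of 3219 UMIs before thinning against 11598 in excitatory neurons. The astrocyte share at P21 was below that value. The microglial share pools all ages, so it does not measure a background of the P21 library, which was not estimated. For Efnb3 the thinned share was 18.9% at E19 and 1.17% at P21 in excitatory neurons, 17.7% and 4.05% in inhibitory neurons, and 27.8% in the oligodendrocyte lineage at P21, beside 6.67% in microglia (2.49 to 13.9). At full depth the values were 49.2% and 12.6%, 43.3% and 16.6%, 60.8% and 10.0%. The thinned neuronal shares at P21 were thus at or below the microglial one, which again pools all ages. Nuclei with both a ligand and a receptor UMI made up 24.4% of excitatory neurons at E19 and 6.45% at P21 after thinning (60.5% and 41.2% without), against 2.22% of microglia over all ages.

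A list of 38 other genes of the pathway, which held related Eph and ephrin genes and known adaptors, exchange factors, kinases and effectors, moved less. All 38 were in the matrix and 35 passed the minimum in each neuron class. From E19 to P21, 0 were past 2-fold higher and 1 lower in excitatory neurons, and 1 was higher and 2 lower in inhibitory neurons. Over all genes the shares higher and lower were 4.46% and 9.67% in excitatory neurons, and 4.94% and 10.4% in inhibitory neurons. Vav2, an exchange factor downstream of Eph receptors, was lower in both (38.2 to 15.4 CPM and 38.2 to 13.5 CPM). Efna5, an ephrin-A ligand that can also bind EphB2, was lower in inhibitory neurons (683 to 333 CPM), and Ngef, the Eph-linked exchange factor ephexin, was higher there (15.9 to 65.5 CPM). The list's median log2 difference was −0.13 in excitatory and −0.24 in inhibitory neurons, beside −0.074 and −0.060 over all genes.

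Genes whose pattern was most like that of a member were ranked by Pearson correlation of log2 levels over 56 profiles of neuron subtype and stage, among 6972 genes. The profiles come from 4 libraries and share their depth, so the values are descriptive. Efnb3 was closest to the tubulin genes Tubb2b, Tubb2a and Tubb5 (0.96 each), whose near-identical sequences make their own counts uncertain. Ephb2 was closest to Tubb5, Rac3 and Fxyd6 (0.87 each), and Efnb3 and Ephb2 correlated with each other at 0.82. Ephb1 was closest to Ttc28 and Cdh13 (0.74 each) and Ptprz1 (0.67), Ephb6 to Dpp6 (0.63), Ttc28 (0.62) and Nrn1 (0.61), and Efnb2 to Gm3764 (0.64), Mir9-3hg (0.61) and Runx1t1 (0.58). By Spearman correlation the leading genes were Hsp90ab1 for Efnb3, Tceal3 for Ephb2, Cdh13 for Ephb1, Crb1 for Ephb6 and Slain1 for Efnb2.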

How the data were processed

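Nuclei of pooled superior colliculus from 4 stages were captured with 10x Genomics 3′ v3 chemistry, per the labels' protocols. Per the submitters' processing notes, Cell Ranger 3.0.2 and the build mm10 were used. The authors deposited counts of UMIs per gene and nucleus, not normalised, with a table of stage, class and subtype for each nucleus. That table's totals equalled the matrix sums in 9724 of 9724 nuclei. In that table the authors' percent of mitochondrial UMIs reached at most 5. How nuclei were filtered, doublets treated, introns counted and classes named is not given in the sources used here; no doublet caller was run here, and 7 further columns were not used. The labels name the embryonic stage in 2 ways, and the title's E19 was used.

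UMIs were summed per library and class or subtype, over the authors' counts, and scaled to CPM. Stage ratios used a pseudocount of 5 CPM, with genes counted past 2-fold at a mean of at least 10 CPM over the stages with at least 50 nuclei. Subtype ratios needed 20 nuclei at both stages. Intervals are exact (95%) and cover counting error only. The class tests used edgeR 4.0.16 (R 4.3.3) with TMM, filterByExpr and Benjamini-Hochberg adjustment on 8 sums, with standard errors derived from the F statistic. DESeq2 1.42.0 and the other alternatives are given below. Tests and fold calls were tested on simulated data. The 7 members, the pathway list and the marker lists were chosen with earlier results of these data known. Named were the members, pathway genes past 2-fold from E19 to P21 in a neuron class, and the 3 genes most correlated with each member at a mean of at least 20 CPM. Protein sequences were not analysed here.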

Additional observations from a re-analysis of the deposited data

Results flagged for a closer look

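From P4 to P21 the oligodendrocyte lineage moved opposite to some other classes in 2 members. For Efnb3 the log2 ratio was 2.43 in the oligodendrocyte lineage, against −2.43 in excitatory neurons, −2.09 in inhibitory neurons and −2.51 in astrocytes, so that the lineage exceeded these classes by 4.86, 4.52 and 4.94. For Ephb1 the ratio was 1.35 in the lineage, −2.88 in astrocytes and −1.40 in vascular leptomeningeal cells. The lineage exceeded astrocytes by 4.23, and vascular leptomeningeal cells differed from the lineage by −2.75. These differences were not tested, since each age was 1 library. None of the 54 nuclei of the lineage at P4 carried the myelinating label, against 61.1% at P21.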

How the results depend on the processing

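Of the alternatives, those for glia and vascular leptomeningeal cells were chosen after seeing the data. The number of members past 2-fold went from 2 to 1 in excitatory neurons under median-of-ratios scaling. In the oligodendrocyte lineage it went from 5 to 3 at a pseudocount of 20 CPM and to 0 with subtypes weighted alike, where only OPC remained and Efnb3 reversed to −0.94. In vascular leptomeningeal cells it went from 2 to 1 at 20 CPM. The excitatory and inhibitory comparison called 1 member and 2605 genes. DESeq2 called 2 members and 1659 genes, thinning to 2300 UMIs gave 3 and 1649, and leaving out EN7 gave 2 members. Leaving out each library gave 0 to 1 members and 1268 to 2368 genes, with 1623 genes without P4 and 1268 without P8. Astrocytes against neurons called 4 members, 2 without a filter on low counts, and 2 to 4 when each library was left out, with 2 without P8.

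The library served as the block that pairs the classes. With no replicate block, the excitatory and inhibitory comparison called 0 members and 168 genes, and astrocytes against neurons 2 members. Ephb3 and Ephb6 in astrocytes stayed past the threshold in 10 of 10 alternatives. No paired analysis was possible because each stage was 1 library for the comparisons between stages. A minimum of 20 nuclei per subtype added no subtype. Members under 10 CPM in neurons, Efnb1 and Ephb3, rest on few UMIs, and no alternative replaces a second library per age.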
